A study of Mus musculus with 72 samples.

Results

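Genes of endoplasmic reticulum (ER) protein folding and of the unfolded protein response were followed in fasted mouse liver. They are 31 genes taken by symbol from the 50307 genes of the count table: 9 ER chaperones and their helpers (Hspa5, Hsp90b1, Hyou1, Dnajb9, Dnajb11, Dnajc3, Sdf2l1, Creld2 and Manf), 4 protein disulfide isomerases (Pdia3, Pdia4, Pdia6 and P4hb), 3 proteins of the lectin chaperone cycle (Calr, Canx and Uggt1), 8 genes of ER-associated degradation (Herpud1, Edem1, Sel1l, Syvn1, Derl1, Derl2, Derl3 and Os9), 3 sensors and transcription factors (Xbp1, Atf6 and Ern1), and 4 genes of the translocon and oligosaccharyltransferase (Sec61b, Sec61a1, Ssr1 and Ostc). Every one of the 31 had enough counts to be tested among 14954 genes.

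All mice ate a Western diet, so the response to that diet itself is not measured here. The diet held low, control or high isoleucine, an essential branched-chain amino acid, and was given for 12 weeks before a fast of 16 h. DBA/2J (DBA) and C57BL/6J (B6, spelled C56BL/6J in the labels) mice of both sexes make 4 classes, DBA males, DBA females, B6 males and B6 females, and the 72 libraries fall into 12 groups of 6. The design text puts the diets' start at an age of 6 weeks, whereas the labels give 18 weeks both as the age when feeding began and as the age of the mice. The 6 libraries of a group carry 3 title numbers, each with the letters N and R, and the labels do not explain the numbers or the letters or name an animal per library. The p-values hence reflect the scatter of these libraries, some of it perhaps technical, and where a call was lost with a block on the title number (fitted with limma voom) its adjusted p is given.

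The ER folds secreted and membrane proteins, which hepatocytes make in bulk. Unfolded protein there is sensed by IRE1 (encoded by Ern1), which splices Xbp1 mRNA, by ATF6, which is cleaved to release a transcription factor, and by PERK, which slows translation and favours ATF4. The factors so made raise transcription of chaperones such as BiP (Hspa5) and GRP94 (Hsp90b1), and of the machinery that exports misfolded proteins to the proteasome. These sensors act through splicing, cleavage and phosphorylation, which counts per gene do not measure.

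Many of these genes are known targets of ATF6 and XBP1 through the ER stress response element (ERSE), CCAAT and CCACG with any 9 bases between them. In the 250 bases before the RefSeq start (GRCm38.p6), searched on both strands, this element stood in 9 of the 25 members that have a promoter sequence in the table, against 0.13% of 27025 genes. The 9 were Hspa5, Hsp90b1, Creld2, Dnajc3, Syvn1, Pdia6, Calr, Canx and Derl3, and Hsp90b1 held it at 2 places. The related element ERSE-II, ATTGG and CCACG with any 1 base between them, stood in Herpud1 alone among the members and in 0.037% of all genes. Herpud1 also held the sequence TTGCATCA, a form of the element that ATF4 binds, which stood in 0.918% of all genes and in no other member. The core of the XBP1 element, TGACGTGG, was in 0 of the 25 members and 0.603% of all genes. CCACG alone, which lies within ERSE and ERSE-II, stood in 19 of the 25 members and in 8368 of the 27025 genes. A match is a description of the letters and not a test of binding. The stretches below are printed because their genes differ in how they moved with diet: the first 5 belong to genes that were lower with high than with low isoleucine, and the last 2 to genes that did not pass that test. Capitals mark the element (in Herpud1, TTGCATCA first and ERSE-II second), each is read 5′ to 3′ on the gene's strand, and where the element lies on the other strand it appears as CGTGG before ATTGG.
Hspa5, chr2:34772013-34772055, + strand: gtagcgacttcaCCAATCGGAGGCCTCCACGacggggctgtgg
Creld2, chr15:88819508-88819550, + strand: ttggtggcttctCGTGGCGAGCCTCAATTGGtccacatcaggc
Dnajc3, chr14:118937815-118937857, + strand: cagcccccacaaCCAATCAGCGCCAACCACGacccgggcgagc
Syvn1, chr19:6046520-6046562, + strand: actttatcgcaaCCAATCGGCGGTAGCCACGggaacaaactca
Herpud1, chr8:94386305-94386399, + strand: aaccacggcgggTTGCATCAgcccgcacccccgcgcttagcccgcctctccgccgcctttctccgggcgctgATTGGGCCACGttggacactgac
Pdia6, chr12:17266479-17266521, + strand: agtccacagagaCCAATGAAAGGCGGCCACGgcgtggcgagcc
Calr, chr8:84847063-84847105, - strand: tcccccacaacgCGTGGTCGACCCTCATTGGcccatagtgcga
In Hspa5 the element lay 65 to 47 bases before the RefSeq start, a stretch that the Ensembl annotation, which begins the gene at 34771970, places inside the gene. In Syvn1 it lay 44 to 26 bases before the start, in Dnajc3 105 to 87 and in Creld2 126 to 108.

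Expected counts per library summed to between 12958975 and 51125371, with a median of 24128733. Levels below are in CPM, on library sizes scaled by TMM, which limits the weight of a few abundant genes. Of the 72 libraries, 3 were singled out. The first 2 lay far from their groups over many genes, and the last was chosen by its levels of the members. High isoleucine DBA male replicate 3 differed from the other 5 libraries of its group by 30.4 to 43.2 times the Poisson variance, and it held the lowest value of its group for 12 members, Dnajb9 and Herpud1 among them, and the highest for 2. B6 female control replicate 4 held 0.568 CPM of the Y-linked gene Ddx3y, against 0 in the other 35 female libraries, and differed from its group by 11.1 to 31.7 times. B6 male control replicate 4 was the highest of its group for several members, as given below. It differed from its group by 6.9 to 19.5 times, which other libraries reached as well. Calls that were lost without one of these 3 libraries are given with and without it. The liver label fits the marker levels, since 9 hepatocyte markers summed to 67790 CPM or more in every library. Pancreatic acinar markers, which would come with another tissue rich in ER, summed to at most 2.15 CPM, all 13 of them had a median under 0.1 CPM and Ptf1a was at 0 in every library.

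Per kilobase of exon, P4hb, the catalytic disulfide isomerase that is also a subunit of prolyl hydroxylase, had the highest median level over the 72 libraries at 375.7 CPM per kb. It was followed by Calr, the calcium-binding lectin chaperone calreticulin (199.8 CPM per kb), Hsp90b1 (164.3), Hspa5 (135.9) and Herpud1 (134.8), the membrane protein that organises the degradation complex. At the low end stood the sensor Ern1 (4.96 CPM per kb), the translocon-associated Ssr1 (4.89), the glycoprotein glucosyltransferase Uggt1 (3.44) and Derl3 (0.702), a channel component of degradation. The length used was the union of exons over all annotated transcripts, so this order depends on the annotation. Before division by length the medians of Ssr1 (50.98 CPM) and Uggt1 (44.24 CPM) were above that of Creld2 (24.56 CPM). Between libraries the level of Derl3 ranged from 0.154 to 14.6 CPM.

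The effect of low isoleucine against control, averaged over the 4 classes, rests on 24 libraries per diet. Of the 9 ER chaperones 5 rose and 0 fell. The members that rose also held parts of the degradation and translocation machinery, but 0 of the 4 disulfide isomerases, 0 of the 3 lectin cycle proteins and 0 of the 3 sensors and factors were called. In all, 9 of 31 members rose and 1 fell (edgeR's quasi-likelihood test, Benjamini-Hochberg adjusted p below 0.05), where 17.8% of all genes tested were higher and 20.0% lower. The median log2 fold change of the 31 members was 0.084, against -0.0035 for all genes tested.

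Hspa5, which encodes the ER Hsp70 BiP and lies on chromosome 2 from 34771970 to 34777547 (GRCm38), ranged from 355 to 1028 CPM with a median of 725 in low isoleucine livers. In control livers it ranged from 359 to 1159 CPM with a median of 543, and in high isoleucine livers from 295 to 883 CPM with a median of 499.8. The ranges overlap widely, and 19 of 24 low isoleucine libraries lay above the control mean of their class. The log2 fold change of low isoleucine against control was 0.37 ± 0.10 (SE, adjusted p = 0.00259, edgeR), a 1.29-fold rise, and the class mean was above control in 4 of 4 classes.

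Creld2, a secreted ER protein known to be induced by ER stress, on chromosome 15 from 88819646 to 88826683, had the largest log2 fold change among the members that rose, 0.42 ± 0.14 (adjusted p = 0.0137). Its libraries spanned 13.04 to 61.1 CPM (median 31.03) with low isoleucine, 12.7 to 62.75 CPM (median 21.3) with control and 10.7 to 42.5 CPM (median 20.0) with high isoleucine. The low isoleucine mean was above control in 3 of 4 classes, the exception being B6 females, whose control libraries all lay within the range of the low isoleucine ones. Manf, a secreted factor that helps keep BiP bound to its clients (chromosome 9 from 106838312 to 106891979), spanned 28.02 to 91.1 CPM (median 65.7) with low isoleucine, 24.6 to 119.7 CPM (median 45.7) with control and 21.1 to 96.4 CPM (median 39.6) with high isoleucine. It rose as well, at 0.35 ± 0.13 (adjusted p = 0.0257, 19 of 24 libraries above the control mean). The highest control value of both genes belongs to B6 male control replicate 4.

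Dnajc3, the BiP co-chaperone that also restrains PERK, rose by 0.22 ± 0.07 (adjusted p = 0.00535). Its low isoleucine libraries lay between 127 and 189.7 CPM, its control libraries between 96.9 and 219.2 CPM and its high isoleucine libraries between 87.35 and 187.2 CPM. The lowest low isoleucine library was above the control median of 124.6 CPM. Dnajb11, a further BiP co-chaperone, rose by 0.19 ± 0.08 (adjusted p = 0.0498), close to the threshold, and did not pass with the libraries' title number as a block (adjusted p = 0.0796) or without B6 female control replicate 4 (adjusted p = 0.0779). Without high isoleucine DBA male replicate 3, which enters through the shared spread, its adjusted p was 0.0506.

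The other 4 chaperones did not pass: Hyou1, the nucleotide exchange factor of BiP, was at 0.28 ± 0.12 (adjusted p = 0.0714), Sdf2l1, a partner of Dnajb11 and BiP, at 0.27 ± 0.20, Dnajb9, the co-chaperone that holds BiP on IRE1, at 0.22 ± 0.10 and Hsp90b1 at 0.18 ± 0.08. B6 male control replicate 4 held 296.2 CPM of Hyou1, where the next library of its group held 134.4 CPM. Without this library 13 members rose in place of 9. It was chosen for its high levels of members, so leaving it out lowers their control mean. The count of 13 is therefore no added evidence of a rise.

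In the degradation machinery, Derl1, a membrane channel component, rose by 0.14 ± 0.05 (adjusted p = 0.0159), and Edem1, which trims mannose from misfolded glycoproteins, by 0.13 ± 0.05 (adjusted p = 0.047, or 0.0995 with the title-number block and 0.054 without B6 female control replicate 4). Derl2, a close relative of Derl1 with a related role, was the single member that fell. It spanned 34.2 to 60.3 CPM (median 46.7) with low isoleucine, 42.3 to 84.2 CPM (median 55.1) with control and 39.0 to 74.3 CPM (median 54.9) with high isoleucine. Its log2 fold change was -0.16 ± 0.05 (adjusted p = 0.0101), and 4 of 24 low isoleucine libraries lay above the control mean. Of the translocon genes, Sec61a1, the channel subunit, rose by 0.16 ± 0.05 (adjusted p = 0.01) and Ssr1 by 0.14 ± 0.05 (adjusted p = 0.0182).

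The folding enzymes that did not pass had values on the other side of 0 or close to it. Pdia6, an isomerase that acts with BiP, was at -0.15 ± 0.10 (adjusted p = 0.23), Pdia3, the isomerase that works with calreticulin and calnexin, at -0.10 ± 0.08, Calr at -0.14 ± 0.10 and P4hb at 0.01 ± 0.04. Pdia4, a further isomerase, was at -0.05 ± 0.09, Canx, the membrane lectin calnexin, at -0.04 ± 0.07 and Uggt1 at 0.06 ± 0.06. Of the degradation genes that did not pass, Herpud1 was at 0.16 ± 0.12, Syvn1 at 0.12 ± 0.11, Sel1l at 0.08 ± 0.07, Os9 at -0.15 ± 0.07 and Derl3 at -0.33 ± 0.32. The translocon subunit Sec61b was at 0.01 ± 0.09 and Ostc, an oligosaccharyltransferase subunit, at 0.04 ± 0.07. Among the factors, Xbp1 spanned 110.2 to 243.8 CPM with low isoleucine, 119.1 to 314.6 CPM with control and 123.5 to 298.2 CPM with high isoleucine, with medians of 169.6, 163.1 and 172.3 CPM in that order. Its log2 fold change was -0.03 ± 0.06, that of Atf6 0.07 ± 0.06 and that of Ern1 -0.04 ± 0.09.

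**Figure D1:**
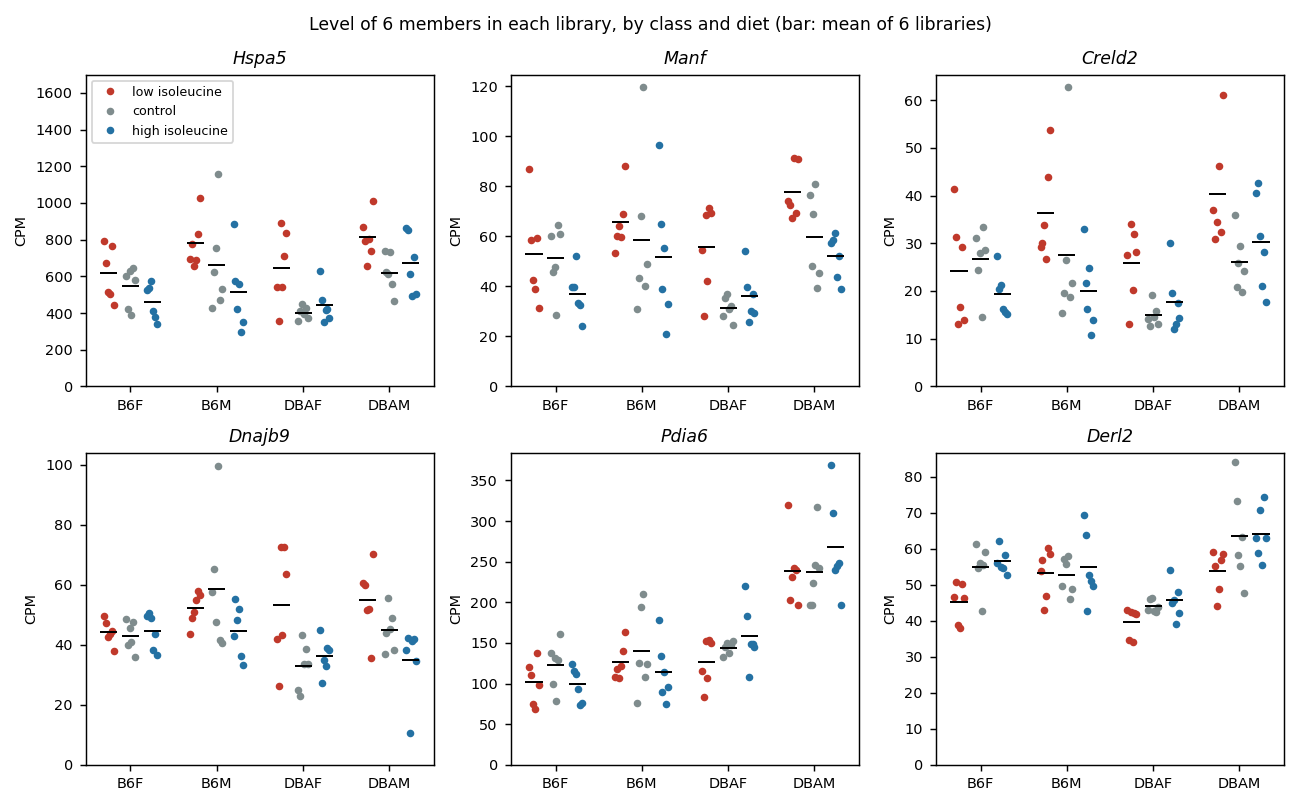
Level of Hspa5, Manf, Creld2, Dnajb9, Pdia6 and Derl2 in CPM (vertical axes, from 0) in each of 72 libraries, by class and, within a class, low, control and high isoleucine from left to right. Points are libraries and bars are means of 6. Hspa5 means of low isoleucine lie above control in all 4 classes, Derl2 means below control in 3 of 4, and B6 male control has 1 library far above the others in several panels.

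High isoleucine was next compared with low isoleucine. This comparison and the one above share the low isoleucine libraries, so they are not independent of each other. With high isoleucine 15 of 31 members were lower and 1 higher, where 20.7% of all genes tested were lower and 22.9% higher. The 15 include 8 of the 9 ER chaperones, 5 of the 8 degradation genes and 2 of the 4 translocon genes. The median log2 fold change was -0.157 over the 31 members and 0.0019 over all genes tested.

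For Hspa5 the log2 fold change of high against low isoleucine was -0.46 ± 0.10 (adjusted p = 0.000169), and 3 of 24 high isoleucine libraries lay above the low isoleucine mean of their class. Creld2 was at -0.54 ± 0.14 (adjusted p = 0.00144), Manf at -0.52 ± 0.13 (adjusted p = 0.000863, 1 of 24 libraries above) and Dnajc3 at -0.27 ± 0.07 (adjusted p = 0.000462). Hyou1 (-0.39 ± 0.12), Dnajb9 (-0.36 ± 0.10), Dnajb11 (-0.23 ± 0.08) and Hsp90b1 (-0.21 ± 0.08) were lower too. Sdf2l1, at -0.39 ± 0.20, did not pass (adjusted p = 0.118), and its libraries spread most among the chaperones.

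Herpud1 spanned 113.3 to 646.7 CPM (median 256.7) with high and 202.2 to 617.2 CPM (median 357.2) with low isoleucine. Its log2 fold change was -0.38 ± 0.12 (adjusted p = 0.00648), yet the mean was above low isoleucine in 2 of 4 classes, those of B6. In DBA females it spanned 175.9 to 287.7 CPM with high and 360.1 to 577.3 CPM with low isoleucine. In DBA males these ranges were 113.3 to 244.1 and 263.9 to 487.5 CPM. In B6 females they were 289.3 to 646.7 and 202.2 to 617.2 CPM, and in B6 males 212.6 to 410.7 and 212.6 to 417.3 CPM. The difference between the strains was not tested. Syvn1, the ubiquitin ligase HRD1, spanned 46.0 to 119.3 CPM (median 65.8) with high and 52.6 to 132.4 CPM (median 86.6) with low isoleucine, a log2 fold change of -0.35 ± 0.11 (adjusted p = 0.0107) that was negative in all 4 classes. Derl1 (-0.16 ± 0.05), Sel1l, the partner of HRD1 (-0.16 ± 0.07), and Edem1 (-0.12 ± 0.05) were lower by less. Sel1l and Edem1 did not pass with the title-number block (adjusted p = 0.102 and 0.113), and without B6 female control replicate 4 Edem1 had an adjusted p of 0.0511. Without high isoleucine DBA male replicate 3 neither passed (adjusted p = 0.0735 for Sel1l and 0.0845 for Edem1), and 13 members were lower in place of 15.

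Of the translocon genes, Sec61a1 was at -0.21 ± 0.05 (adjusted p = 0.000669) and Ssr1 at -0.16 ± 0.05 (adjusted p = 0.00498) with high against low isoleucine. Derl2 was the single member higher with high isoleucine, at 0.21 ± 0.05 (adjusted p = 0.000976, 19 of 24 libraries above the low isoleucine mean and 4 of 4 classes). Of the 4 disulfide isomerases, 3 lectin cycle proteins and 3 sensors and factors, 0 passed. Their log2 fold changes ran from -0.11 for Uggt1 to 0.12 for Xbp1.

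**Figure D2:**
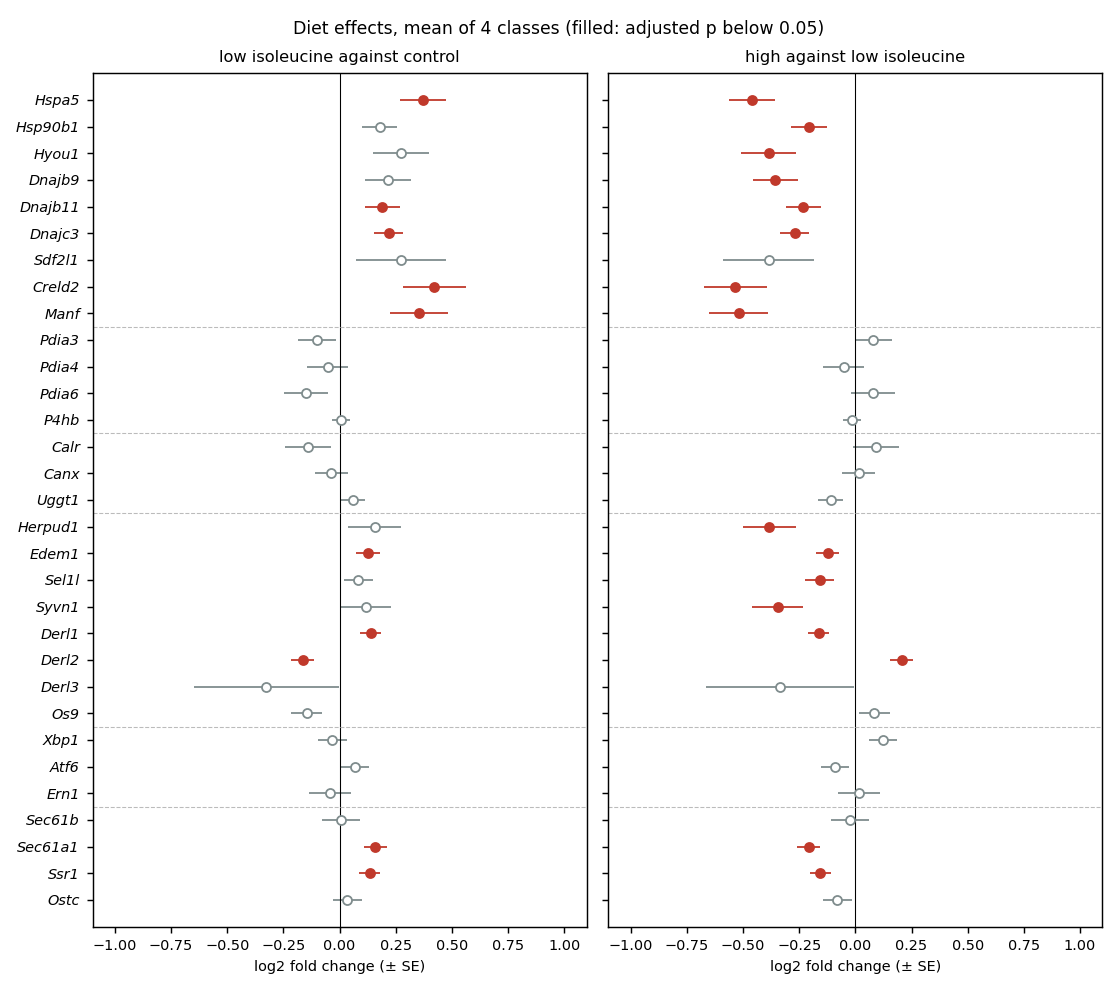
Log2 fold change of each member, mean of 4 classes, with its SE (horizontal axes), for low isoleucine against control on the left and high against low isoleucine on the right. Filled points have an adjusted p below 0.05 and dashed lines part the 6 roles. The 9 chaperones at the top lie right of 0 on the left panel and left of 0 on the right panel, and the isomerases and lectin cycle proteins lie between -0.15 and 0.09 in both.

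The genes with an ERSE match did not all move with diet. Of the 9, 5 were lower with high than with low isoleucine (Hspa5, Hsp90b1, Creld2, Dnajc3 and Syvn1), with a median log2 fold change of -0.271 over the 9. Of the 16 members with a promoter sequence and no ERSE match, 6 were lower and 1 higher, with a median of -0.082. No test was made of this difference.

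High isoleucine against control gave 0 of 31 members called in either direction as the mean of 4 classes, and 0% of all genes tested passed in either direction. At an unadjusted p below 0.05 stood 1 member, Syvn1 (-0.23 ± 0.11), and 684 genes in all, and DESeq2 also called 0 members. Log2 fold changes were below 0 in 28 of the 31 members, with a median of -0.048, against 0.0027 for all genes tested. Hspa5 was at -0.09 ± 0.10.

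By class, low isoleucine against control gave the most calls in DBA females, where 4 members rose and 0 fell, against 5.11% of all genes higher and 6.66% lower. Hspa5 spanned 355 to 893 CPM (median 626) in low isoleucine DBA females, against 359 to 448 CPM (median 404) in control DBA females. In 5 of 6 low isoleucine libraries it exceeded the control mean, and the remaining one lay below every control library. Its log2 fold change was 0.68 ± 0.20 (adjusted p = 0.0194).

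Manf in DBA females spanned 28.02 to 71.2 CPM (median 61.5) with low isoleucine and 24.6 to 37.0 CPM (median 31.4) with control, a log2 fold change of 0.83 ± 0.26 (adjusted p = 0.0288). Dnajb9 spanned 26.2 to 72.8 CPM with low isoleucine and 22.9 to 43.2 CPM with control (0.70 ± 0.20, adjusted p = 0.0153). Syvn1 spanned 60.4 to 106.1 CPM with low isoleucine and 43.8 to 77.5 CPM with control (0.69 ± 0.23, adjusted p = 0.0389, 6 of 6 libraries above the control mean). For each of these genes the ranges overlapped. With the title number as a block 0 of the 4 passed, with adjusted p-values of 0.0854 for Hspa5, 0.101 for Manf, 0.107 for Dnajb9 and 0.0901 for Syvn1.

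In DBA males 1 member rose, against 7.48% of all genes higher and 10.2% lower. It was Dnajc3, at 132.6 to 189.7 CPM (median 160.9) with low isoleucine and 96.9 to 149.7 CPM (median 117.8) with control, a log2 fold change of 0.45 ± 0.13 (adjusted p = 0.0101) with 6 of 6 libraries above the control mean. In B6 males 0 members were called, against 1.74% of all genes higher and 3.26% lower. There 3 members had an unadjusted p below 0.05, as did 18.9% of all genes, and DESeq2 called 0.

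In B6 females 0 members rose and 1 fell, against 20.8% of all genes called, 9.53% higher and 11.3% lower. It was Derl2, at 37.9 to 50.9 CPM (median 46.4) with low isoleucine and 42.6 to 61.3 CPM (median 55.7) with control. It was at -0.28 ± 0.10 on the log2 scale (adjusted p = 0.0461, or 0.0989 with the title-number block), and 0 of 6 libraries lay above the control mean.

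High isoleucine against control by class called 1 member, in B6 males, where 4.51% of all genes were called, 1.89% higher and 2.61% lower. It was Dnajc3, at 87.6 to 144.5 CPM (median 123.1) with high isoleucine and 118.6 to 219.2 CPM (median 155.0) with control. Its log2 fold change was -0.44 ± 0.13 (adjusted p = 0.0334), and it did not pass with the title-number block (adjusted p = 0.118) or without B6 male control replicate 4 (-0.34, adjusted p = 0.143). In B6 females, DBA females and DBA males 0 members were called, against 0%, 0.00669% and 0.0134% of all genes called, all of them higher, in that order. There 2, 1 and 1 members had an unadjusted p below 0.05, as did 5.66%, 2.39% and 8.43% of all genes, and DESeq2 called 0 in each.

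Whether the effect of low or of high isoleucine against control differed by strain or by sex was tested with interaction terms. These were called for 0 of 31 members each. The effect of high against low isoleucine was tested only as the mean of 4 classes, and not for differences between strains or sexes. For the strain difference of the low isoleucine effect 7 members and 14.6% of all genes had an unadjusted p below 0.05, and 1.39% of all genes were called, 0.716% higher and 0.675% lower. It was above 0 in 29 of 31 members. For the sex difference of that effect these were 3 members and 21.4% of all genes, and 6.68% of all genes were called, 3.03% higher and 3.65% lower. The lowest unadjusted values were Dnajb9 between strains (DBA minus B6 0.57 ± 0.20, adjusted p = 0.142) and Os9, a lectin of degradation, between sexes (male minus female -0.39 ± 0.14, adjusted p = 0.0714). For the strain difference of the high isoleucine effect 13 members and 12.6% of all genes had an unadjusted p below 0.05, and 0.461% of all genes were called, 0.254% higher and 0.207% lower. For its sex difference these were 5 members and 6.71% of all genes, and 0% of all genes were called. This strain difference was above 0 in 27 of 31 members, with Dnajc3 at 0.39 ± 0.13 (adjusted p = 0.152) and Sdf2l1 at 1.17 ± 0.41 (adjusted p = 0.181). DESeq2 called 0 members in each of the 4. The larger count of calls in DBA females is therefore not shown to differ from the other classes.

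**Figure D3:**
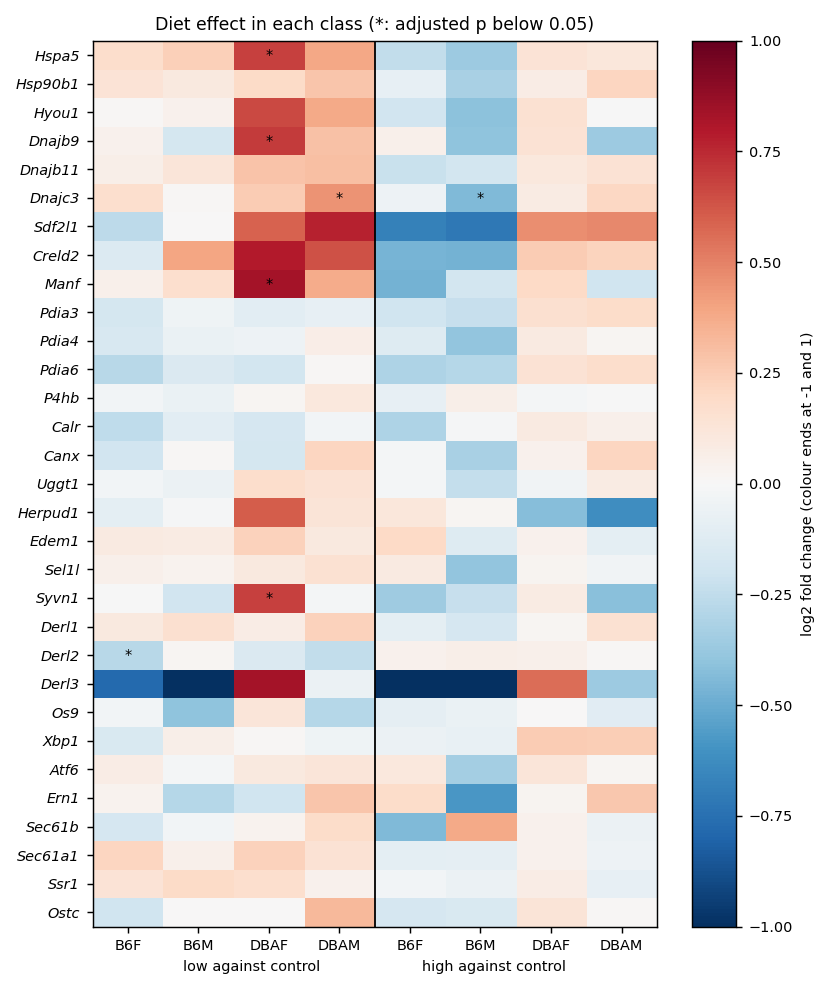
Log2 fold change of each member (rows) in each class (columns) for low isoleucine against control on the left and high isoleucine against control on the right. Red is higher than control and blue lower, colours end at -1 and 1, and an asterisk marks an adjusted p below 0.05. In low isoleucine DBA females 4 members carry an asterisk.

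Other genes of the pathway were grouped in lists and compared between low isoleucine and control. Among all genes tested 17.8% were higher and 20.0% lower, and no list was tested against these shares. Of 19 tested genes of the PERK branch and its ATF4 targets, 5 rose and 1 fell, with Asns, asparagine synthetase, at 1.29 ± 0.38 (adjusted p = 0.005), Vldlr, the very low density lipoprotein receptor, at 0.73 ± 0.21, Ddit4, an inhibitor of mTORC1, at 0.64 ± 0.21 and Atf4 at 0.25 ± 0.07. With high against low isoleucine 2 of these 19 were higher and 8 lower, where 22.9% of all genes tested were higher and 20.7% lower. Asns was then at -1.96 ± 0.40 (adjusted p = 6.03e-05). Of 22 other ER chaperones and folding enzymes 4 rose and 5 fell, among them Txndc11, a thioredoxin-domain protein (0.33 ± 0.07), and Sdf2, the close relative of Sdf2l1 (-0.21 ± 0.04).

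Of 20 other degradation genes 5 rose and 4 fell with low isoleucine, against 17.8% of all genes tested higher and 20.0% lower. Ube2g2, a ubiquitin-conjugating enzyme of the ER (0.37 ± 0.06, adjusted p = 1.79e-06), rose and Rnf5, a membrane ubiquitin ligase (-0.46 ± 0.06, adjusted p = 2.01e-08), fell. Of 38 genes of translocation, signal peptide cleavage and N-glycosylation 9 rose and 3 fell, with Stt3b, a catalytic subunit of the oligosaccharyltransferase, at 0.28 ± 0.05 and Ost4, a small subunit of it, at -0.34 ± 0.08. Of 15 genes of processing proteases, tethered transcription factors and IRE1 partners 0 rose and 3 fell, among them Bak1 (-0.40 ± 0.10). Of 29 genes of COPII transport 3 rose and 3 fell, with Preb, the activator of the COPII GTPase, at 0.19 ± 0.04. Median log2 fold changes were 0.103 for the PERK list and between -0.004 and 0.039 for the other 5.

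Markers of other cells moved with diet as well. Of all genes tested 17.8% were higher and 20.0% lower with low isoleucine against control. With high against low isoleucine these shares were 22.9% and 20.7%. With low isoleucine against control, 4 of 9 hepatocyte markers rose and 0 fell, 8 of 10 Kupffer cell markers fell and 0 rose, and 6 of 8 sinusoidal endothelial markers rose and 0 fell. Of 10 tested markers of plasma cells and B cells, which include secretory cells rich in ER, 3 fell and 0 rose. Stellate cell markers had 2 of 8 lower, and cholangiocyte markers 2 of 6 higher and 1 lower. Summed hepatocyte markers spanned 91910 to 154000 CPM with low isoleucine (median 110100), 79810 to 122600 CPM with control (median 98320) and 67790 to 125800 CPM with high isoleucine (median 87480). Summed Kupffer cell markers spanned 103.8 to 448.7 CPM with low isoleucine, 149.9 to 1008 CPM with control and 122.0 to 1115 CPM with high isoleucine, and summed plasma cell and B cell markers 8.49 to 97.2 CPM, 9.23 to 142.7 CPM and 8.55 to 88.8 CPM in the same order. Among those markers Tnfrsf17 had a median under 0.1 CPM. With high against low isoleucine 5 of 9 hepatocyte markers were lower, 10 of 10 Kupffer cell markers higher and 6 of 8 sinusoidal endothelial markers lower. Plasma cell and B cell markers had 1 higher and 1 lower, stellate cell markers 2 higher and 1 lower, and cholangiocyte markers 0 higher and 2 lower. Their part in the results on the members was not tested, and in bulk tissue fewer cells of a type and less RNA per cell cannot be told apart.

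Apart from diet, libraries of the same group differed in these genes together. As a description, the log2 CPM of each gene was taken as its deviation from the mean of its group, and correlated with that of Hspa5 over 72 libraries. Genes of a library share its depth, and libraries that share a title number may share more. The 10 genes of all tested that were most like Hspa5 were Manf (r = 0.911), Hyou1 (0.902), Creld2 (0.891), Dnajb11 (0.868), Hsp90b1 (0.865), Sdf2l1 (0.858), Pdia4 (0.851), Pdia3 (0.833), Pdia6 (0.807) and Rpn1 (0.801), a subunit of the oligosaccharyltransferase and the one of the 10 that is not a member. Of the other 30 members, 20 had a correlation above 0.5, against 0.448% of all genes tested. Median correlations were 0.65 for the 30 members and -0.0034 for all genes tested.

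By role the median correlation with Hspa5 was 0.868 for the 9 chaperones, Hspa5 itself included at 1, 0.82 for the disulfide isomerases, 0.713 for the lectin cycle, 0.508 for degradation, 0.391 for the translocon and 0.345 for the sensors and factors. Among the last Xbp1 was at 0.663, Ern1 at 0.345 and Atf6 at 0.265. Os9 was lowest at 0.0911. Of the 8 other chaperones, Dnajb9 (0.516) and Dnajc3 (0.71) were below Pdia3, Pdia4 and Pdia6 and the other 6 above them. The diet effects of these 3 isomerases did not pass.

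The spread within groups was widest for Derl3, with an SD of 1.11 on the log2 scale, followed by Sdf2l1 (0.697), Creld2 (0.485), Manf (0.458) and Hyou1 (0.436). P4hb had the narrowest, 0.118. The median SD was 0.282 over all members, against 0.289 over all genes tested. Over the 29 members with a mean of at least 10 CPM it was 0.281, against 0.213 over the 7357 genes tested that reach this level.

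**Figure D4:**
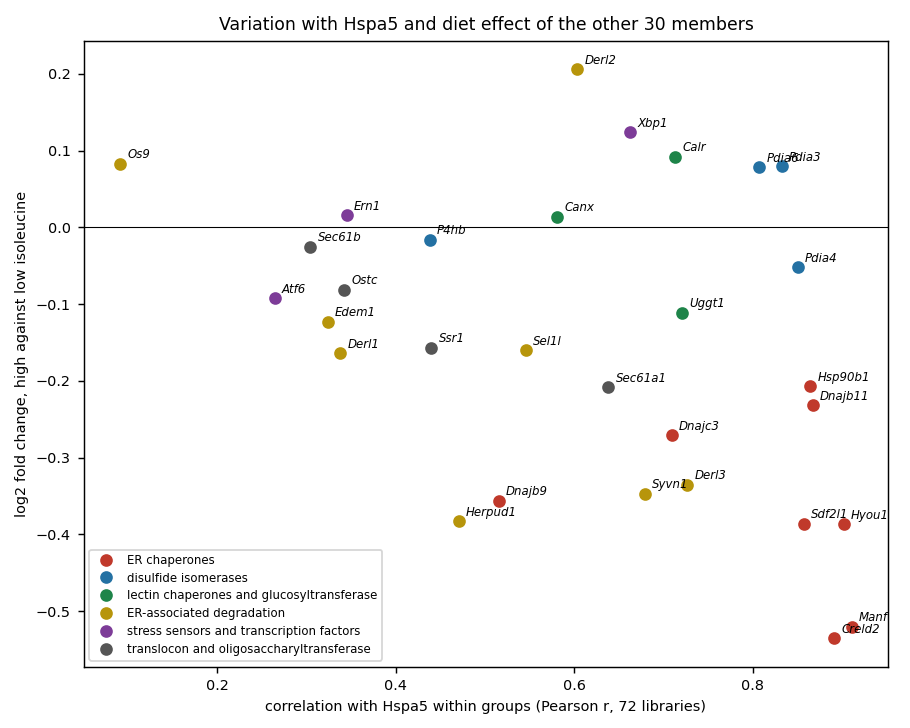
Correlation of each of the other 30 members with Hspa5 within groups over 72 libraries (horizontal axis) and its log2 fold change of high against low isoleucine (vertical axis), coloured by role. Pdia3, Pdia4 and Pdia6 lie at correlations of 0.807 to 0.851 with fold changes between -0.05 and 0.08, and Manf and Creld2 at 0.911 and 0.891 with the lowest fold changes.

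On the control diet males were compared with females as the mean of both strains, 12 libraries each. In males 15 of 31 members were higher and 0 lower, where 13.3% of all genes tested were higher and 12.9% lower. Log2 fold changes were above 0 in 30 of 31 members, with a median of 0.231, against 0.0011 for all genes tested. The 15 were 5 chaperones (Hspa5, Dnajb9, Dnajb11, Sdf2l1 and Manf), 3 isomerases (Pdia3, Pdia6 and P4hb), 4 degradation genes (Syvn1, Derl1, Derl2 and Derl3), Xbp1, Sec61b and Ssr1. With the title-number block 7 passed, with limma voom and no block 12, and without B6 male control replicate 4 there were 8.

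Pdia6 spanned 75.6 to 317.1 CPM (median 196.7) in male livers and 78.2 to 160.5 CPM (median 137.7) in female livers, a log2 fold change of 0.45 ± 0.14 (adjusted p = 0.0105). Ssr1 spanned 43.85 to 81.5 CPM (median 53.5) in males and 37.8 to 53.5 CPM (median 46.0) in females (0.28 ± 0.07, adjusted p = 0.000864). Derl3 spanned 0.264 to 14.6 CPM (median 3.51) in males and 0.444 to 4.72 CPM (median 1.03) in females. For each of these genes the sexes overlapped, and male libraries reached higher values.

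The log2 fold change of Derl3 was 1.84 ± 0.46 (adjusted p = 0.00186, or 0.0799 with the title-number block). Pdia3 was at 0.41 ± 0.12, Sec61b, a small channel subunit, at 0.39 ± 0.12 and P4hb at 0.19 ± 0.06. These passed under every alternative tried. Group means in males and females were 15.08 and 14.92 CPM for Sec61b in B6, and 19.56 and 11.58 CPM in DBA. For Derl2 they were 52.6 and 54.9 CPM in B6, and 63.68 and 44.07 CPM in DBA. For P4hb they were 1272 and 1157 CPM in B6, and 996.1 and 838.7 CPM in DBA. For Pdia3 they were 307.3 and 275.4 CPM in B6, and 394.5 and 250.3 CPM in DBA. Whether the sex difference itself differed by strain was not tested. Hspa5 spanned 427.5 to 1159 CPM (median 617.6) in males and 358.9 to 646.2 CPM (median 426.0) in females, and its log2 fold change was 0.45 ± 0.14 (adjusted p = 0.0145). With the block the adjusted p was 0.0598, and without B6 male control replicate 4 its log2 fold change was 0.33 with an adjusted p of 0.0668. Without that library Dnajb9, Dnajb11, Sdf2l1, Manf, Syvn1 and Xbp1 did not pass either, with adjusted p-values of 0.0589, 0.116, 0.218, 0.0908, 0.177 and 0.08. The same 6 were lost with the block, at 0.0793, 0.11, 0.149, 0.0842, 0.126 and 0.0908 in that order. Without B6 female control replicate 4, 12 members were higher in males, and Dnajb11, Sdf2l1 and Xbp1 had adjusted p-values of 0.0847, 0.0684 and 0.0579.

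Pathway genes outside the members were also higher in males in several lists, where 13.3% of all genes tested were higher and 12.9% lower. Of 38 translocation and N-glycosylation genes 18 were higher and 1 lower, of 20 degradation genes 8 higher and 0 lower, of 29 COPII genes 8 higher and 0 lower, and of 22 folding enzymes 7 higher and 1 lower. Of 19 PERK branch genes 2 were higher and 3 lower, and of 15 genes of proteases, tethered factors and IRE1 partners 0 were higher and 1 lower. In the same comparison 10 of 10 Kupffer cell, 6 of 8 sinusoidal endothelial, 6 of 8 stellate cell and 6 of 10 plasma cell and B cell markers were lower in males and 0 higher. Of the hepatocyte markers 1 of 9 was higher and 2 lower, and of 6 cholangiocyte markers 0 were higher and 1 lower. Plasma cell and B cell markers summed to 9.23 to 36.9 CPM in males and 15.5 to 142.7 CPM in females. Their part in the differences between the sexes was not tested.

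DBA was compared with B6 on the control diet as the mean of both sexes, 12 libraries each. Of 31 members 3 were higher and 6 lower in DBA, where 45.4% of all genes tested were called, 22.9% higher and 22.5% lower. P4hb, on chromosome 11 from 120560298 to 120573253, spanned 733.4 to 1097 CPM (median 931.7) in DBA and 1039 to 1371 CPM (median 1202) in B6. The ranges overlapped at their ends, and 0 of 12 DBA libraries lay above the B6 mean of their sex. Its log2 fold change was -0.41 ± 0.06 (adjusted p = 3.17e-09).

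Pdia6 went the other way, with 133.1 to 317.1 CPM (median 174.3) in DBA and 75.6 to 210.1 CPM (median 127.3) in B6, a log2 fold change of 0.50 ± 0.14 (adjusted p = 0.00209) with 12 of 12 DBA libraries above the B6 mean of their sex. Os9 spanned 170.9 to 247.0 CPM (median 217.5) in DBA and 203.8 to 446.2 CPM (median 271.0) in B6, and was lower in DBA by a log2 fold change of -0.39 ± 0.10 (adjusted p = 0.000729). The isomerases P4hb and Pdia6 thus differed in opposite directions between the strains.

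Xbp1 (0.25 ± 0.09) and Ssr1 (0.19 ± 0.07) were also higher in DBA as the mean of both sexes, and Dnajc3 (-0.32 ± 0.09) was lower. Ssr1 spanned 48.3 to 81.5 CPM in DBA males and 43.8 to 55.9 CPM in B6 males. In females it spanned 39.7 to 50.4 CPM in DBA and 37.8 to 53.5 CPM in B6. Whether the strain difference itself differed by sex was not tested. Hyou1 (-0.51 ± 0.17), Dnajb9 (-0.39 ± 0.14) and Syvn1 (-0.40 ± 0.16) were lower in DBA too, but did not pass without B6 male control replicate 4 (adjusted p = 0.0977, 0.0906 and 0.336) or with the title-number block (adjusted p = 0.0689, 0.0826 and 0.159), so that 3 lower members were called in either case. Reads of both strains were aligned to the same build, and its part in the strain differences was not tested. Between the strains 8 of 10 Kupffer cell and 5 of 10 plasma cell and B cell markers were lower in DBA and 0 higher. Stellate cell markers had 4 of 8 lower and 0 higher, and cholangiocyte markers 4 of 6 lower and 1 higher. Sinusoidal endothelial markers had 2 of 8 lower and 1 higher, and hepatocyte markers 1 of 9 lower and 1 higher. Among all genes tested 22.5% were lower and 22.9% higher. The part of these markers was not tested either. Without B6 female control replicate 4, 8 members were lower.

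**Figure D5:**
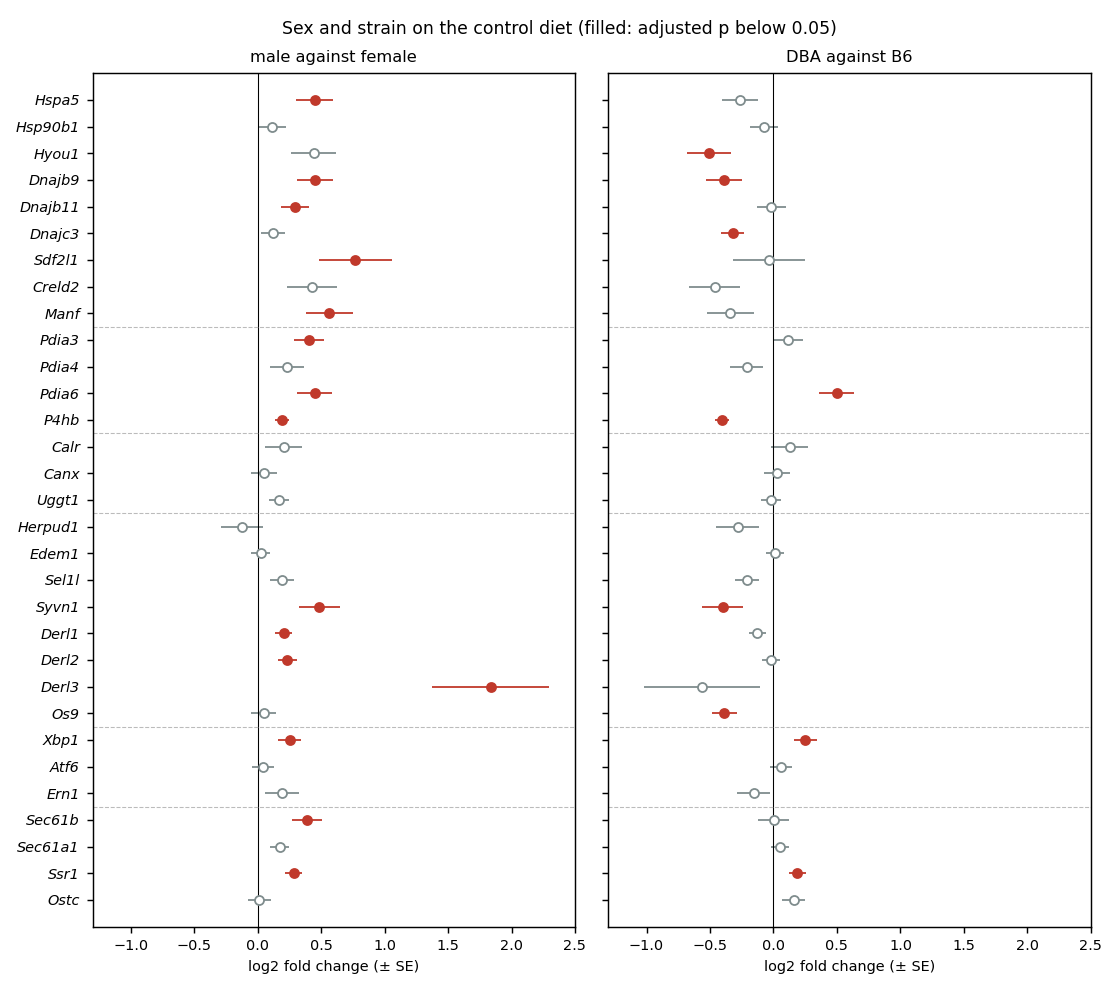
Log2 fold change of each member with its SE (horizontal axes) on the control diet, for males against females on the left and DBA against B6 on the right. Filled points have an adjusted p below 0.05. On the left 30 of 31 points lie above 0, with Derl3 farthest at 1.84, and on the right Pdia6 lies highest at 0.50 with the other members on both sides of 0.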

How the data were processed

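RNA-seq was made of 72 liver libraries. The deposited table holds the authors' expected counts for Ensembl genes, from reads aligned to GRCm38.p5, per the labels' protocols; which aligner and counter made it is not given in the sources used here. R 3.4.3, edgeR and limma are listed per the submitters' processing notes. The labels' fields differ on the library preparation, naming polyA stranded mRNA and also a guide for stranded total RNA. A share of 9.56% of nonzero values was not whole. The last of 50308 lines is incomplete and was left out, and 0 columns were unmatched. The authors' tables of fold changes, p-values and scores were not used here.

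Expected counts were rounded, genes with low counts were removed by filterByExpr, and libraries were scaled by TMM (factors 0.841 to 1.14). All 72 libraries entered 1 fit of edgeR's quasi-likelihood test (robust) with a mean per group, and p-values were adjusted over 14954 genes by Benjamini and Hochberg at a threshold of 0.05. The script was tested on simulated data. The software was edgeR 4.0.16, limma 3.58.1 and DESeq2 1.42.0 in R 4.3.3. Correlations used log2(CPM + 0.1). Libraries of a group that share a title number differed by a median of 6.64 times the Poisson variance and other pairs by 10.7 times; a block on the number (limma voom, correlation 0.244) was an alternative. Replicates were numbered in accession order. No pair of libraries of a group agreed within sampling noise, as the lowest ratio to Poisson variance was 3.61. Symbols and positions came from GENCODE on GRCm38. All members are named, and of each list up to 4 genes with the lowest adjusted p in low isoleucine against control. The members and lists were chosen with earlier results of these data known.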

Additional observations from a re-analysis of the deposited data

Results flagged for a closer look

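A library far from the others of its group was found in 20 of 372 combinations of member and group. The rule flags 1 in 20 sets of independent, normally distributed values. Levels of these members vary together, so the count is no test of chance, and no explanation was tested. B6 male control replicate 4 was highest for Hyou1 (296.2 CPM, next 134.4), Creld2 (62.75 CPM, next 26.5), Syvn1 (242.3 CPM, next 99.8) and Sec61a1 (158.8 CPM, next 122.4). In low isoleucine DBA males replicate 1 was highest for Pdia3 (439.1 CPM), Pdia6 (320.3 CPM) and P4hb (1346 CPM), and replicate 4 for Calr (999.8 CPM). In high isoleucine B6 males replicate 1 was highest for Sdf2l1 (11.36 CPM) and Derl3 (5.988 CPM), and replicate 2 for Ostc (33.49 CPM). In high isoleucine DBA females replicate 1 was highest for Hyou1 (118.9 CPM) and Pdia4 (198.4 CPM). In high isoleucine DBA males replicate 3 was lowest for Dnajb9 (10.71 CPM, next 34.7) and replicate 1 highest for Derl3 (8.964 CPM). In control DBA males replicate 4 was highest for Xbp1 (314.6 CPM, next 207.5) and replicate 5 for Derl3 (14.59 CPM). The others were Canx in low isoleucine B6 females (216.4 CPM, replicate 5), Derl1 in low isoleucine DBA females (99.09 CPM, replicate 6) and Derl2 in control B6 females (42.64 CPM in replicate 4, the lowest, next 54.8).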

How the results depend on the processing

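Of 57 calls of single members, 33 held under all 10 alternatives tried and 0 reversed. The title-number block lost 21; it differs from the reported fit in the test as well as the block, and limma voom without the block lost 5, all of them among the 21. No filter on low counts lost 13, leaving out B6 male control replicate 4 lost 11, library quality weights 6, leaving out B6 female control replicate 4 6, leaving out high isoleucine DBA male replicate 3 3, the title letter as a covariate 2 and DESeq2 0. The fits without B6 male control replicate 4 and without high isoleucine DBA male replicate 3, limma voom without the block and the block across classes were chosen after seeing the data. Of 340 counts of called members 315 stayed within 1.5 times. Most of the 340 were 0 in the reported fit, and a count that stayed at 0 is among the 315. Those that moved follow. With the block, DBA female low isoleucine against control had 0 members higher instead of 4, B6 female 0 lower instead of 1, B6 male high isoleucine against control 0 lower instead of 1, DBA against B6 3 lower instead of 6, and male against female 7 higher instead of 15. With no filter these were 2 higher in DBA females, 0 lower in B6 females and 0 lower in B6 males with high isoleucine, where more genes are tested. With quality weights, low isoleucine against control had 4 lower instead of 1 as the mean of classes, 2 lower in B6 females, 1 lower in B6 males, 7 higher in DBA females, and 2 higher and 1 lower in DBA males, and the sex difference of its effect had 1 higher and 1 lower instead of 0. DESeq2 called 2 members lower in B6 males with high isoleucine. Without B6 male control replicate 4, that count was 0, DBA against B6 had 3 lower, and male against female 8 higher. Without high isoleucine DBA male replicate 3, B6 males with high isoleucine had 2 lower and DBA males with low isoleucine 2 higher. Other causes were not tested. Title numbers recur across classes, where deviations from the group mean had a median correlation of 0.0154 over 100 pairs of libraries with the same number (27 of them above 0.1) and 0.00138 over other pairs. A block on the number across classes lost 13 calls, leaving 0 higher in DBA females and 0 lower in B6 females with low isoleucine, and 0 lower in B6 males with high isoleucine. Diets compared within a class share no title number. With 6 libraries per group, single-class effects had an SE near 0.2 for Hspa5. Effects larger than that SE could still miss the adjusted threshold, so a class without calls is not shown to lack an effect.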
